A study of Mus musculus with 10 samples.

Results

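The genes described here are 7 members of the interferon and interleukin-10 (IL-10) signalling system: the receptor chain genes Ifnar1, Ifnar2, Ifngr1, Ifngr2, Il10ra and Il10rb, and Il10 itself. They were chosen by symbol from the 22329 genes of the deposited table, and all 7 had a row. They were followed in 10 tumours of B16F10, a mouse melanoma line, grown under the skin of C57BL6/J mice. Each tumour received 1 injection of 80 µg mRNA and was collected at day 7. In the 5 control mRNA tumours the mRNA encoded luciferase. The other 5, the cytokine mRNA tumours, were given mRNAs for 4 mouse proteins together, at 20 µg apiece: single chain IL-12, IL-15sushi, GM-CSF and IFNalpha. Libraries 1 to 5 are control and libraries 6 to 10 cytokine mRNA. Values are TPM (transcript counts scaled to a fixed total per library) and corrected for transcript length, so levels can be compared between genes, but the sequencing depth is unknown.

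Each of these receptors pairs a chain with high affinity for its ligand, which binds the kinase JAK1, with a partner chain that brings TYK2 or JAK2. For type I interferons the pair is IFNAR2 with IFNAR1, for interferon gamma IFNGR1 with IFNGR2, and for IL-10 the products of Il10ra and Il10rb. These receptors signal through STAT transcription factors, the IL-10 receptor mainly through STAT3. The Il10rb product also serves the receptors of IL-22 and of type III interferons. IFNAR and IFNGR chains are made by most cell types, melanoma cells included, whereas the Il10ra product is found mainly on leukocytes, and IL-10 restrains macrophages and dendritic cells.

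Some libraries stood apart. The mean log2(TPM + 1) of 12 pan-leukocyte genes was 3.17 to 5.25 in control and 7.16 to 8.29 in libraries 6 to 9, but 5.59 in library 10. In library 7, 276 of 1496 chemosensory receptor genes had a value above 0, where the other libraries had 11 to 40, and its 8 melanocyte lineage genes summed to 41.9 TPM, against 2604 to 16413 TPM in control. Control library 1 was low in Tyrp1 and Dct, the most abundant of these genes, at 508 and 593 TPM. Control libraries 2 to 5 had 5137 to 6568 and 3699 to 4589 TPM. The SD of ribosomal protein genes around their control means (log2) was 0.30 to 0.44 in control. It was 1.63, 2.18, 0.73, 0.56 and 0.37 in libraries 6 to 10. Mitochondrial genes took 16.2% to 27.9% of the TPM in control and 4.44% to 19.2% in cytokine mRNA tumours. Over the 12497 genes tested with limma, 926 were called higher and 378 lower (825 and 901 after rescaling without mitochondrial genes, 855 and 569 without the 50 most abundant genes), and the median log2 change was -0.18. That median was -0.37 without mitochondrial genes, -0.28 without the 50 most abundant genes, -0.14 after quantile normalization and -0.03 with median-ratio scaling.

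In the cytokine mRNA tumours, 1 chain of each receptor was higher and its partner was not called. Ifnar2, Ifngr1 and Il10ra, the JAK1-binding chains, were called higher, while Ifnar1, Ifngr2, Il10rb and Il10 did not pass the threshold, an adjusted p under 0.05. Thus 3 of 7 members were called higher, where 7.41% of all tested genes were, and 0 were called lower by limma (also 0 at an unadjusted p under 0.05), where 3.02% of all were. The median log2 change was 1.05 over the members and -0.18 over all tested genes. The member median is the value of Il10, which was not called, and does not describe the receptor chains. Ifnar2, Ifngr1 and Il10ra were at 1.42, 2.24 and 2.68, and Ifnar1, Ifngr2 and Il10rb at -0.05, -0.24 and -0.21. None of the 7 separated the groups without overlap, as 5.45% of tested genes did in the higher direction. In a bulk tumour, fewer cells of a type and less RNA per cell cannot be told apart.

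**Figure D1:**
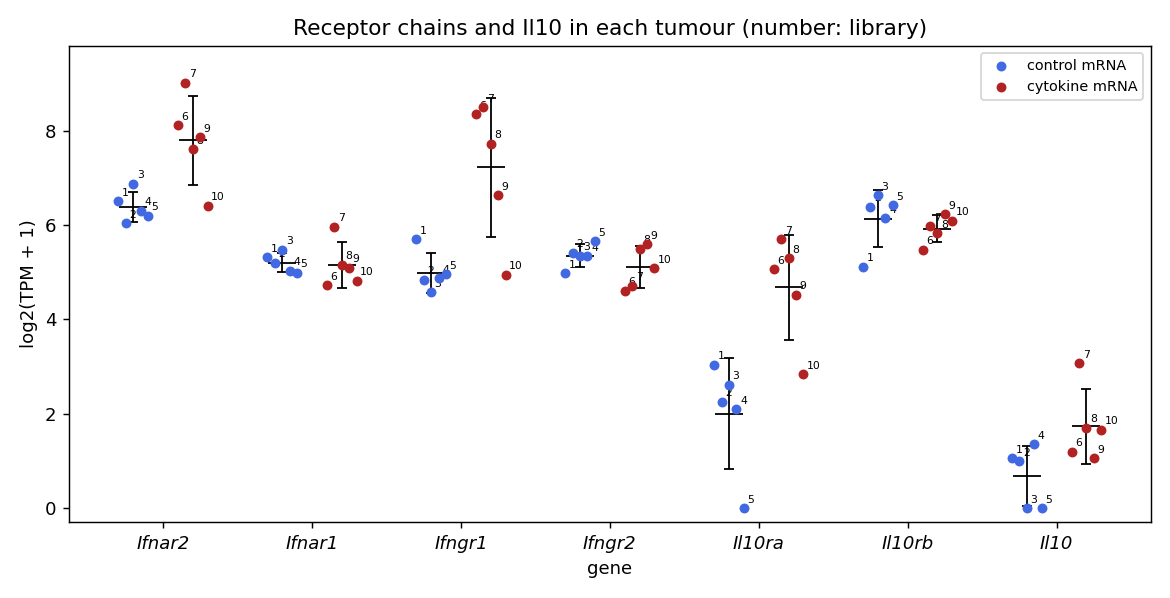
Level of each member on the log2(TPM + 1) scale in every tumour (points, numbered by library; blue control mRNA, red cytokine mRNA), with the group mean and SD as black bars. Libraries 6 to 9 lie above all control libraries for Ifnar2, Ifngr1 and Il10ra, and library 10 lies within the control range for all 3 of these.

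Ifnar2 makes the high-affinity chain of the type I interferon receptor. It was at 90.2, 64.9, 116.6, 77.9 and 72.6 TPM in control libraries 1 to 5 and at 277, 519, 194, 231 and 84.2 TPM in libraries 6 to 10. Libraries 6 to 9 were above every control library, with library 7 highest, and library 10 lay inside the control range. The mean was 84.4 ± 20.2 in control and 261 ± 161 TPM in cytokine mRNA tumours (SD, n = 5 each), a ratio of means of 3.09. The log2 change was 1.42 ± 0.40 (SE; limma adjusted p = 0.0454).

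Ifnar1, the partner that binds TYK2, was at 39.1, 35.8, 43.5, 31.7 and 30.7 TPM in control and at 25.5, 61.5, 34.7, 33.3 and 27.3 TPM in libraries 6 to 10. The groups overlapped, with 1 cytokine mRNA library (7) above the control range and 2 (6 and 10) below it. The means were 36.2 ± 5.28 and 36.5 ± 14.5 TPM. Its log2 change was -0.05 with a 95% interval of -0.60 to 0.50 (limma adjusted p = 0.907), and the sign turned with median-ratio scaling (0.12).

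Ifngr1 makes the chain that binds interferon gamma. It was at 51.1, 27.7, 22.9, 28.2 and 30.1 TPM in control and at 325, 360, 211, 98.7 and 29.8 TPM in libraries 6 to 10. Libraries 6 to 9 again exceeded every control library, and library 10 lay inside the control range. The mean rose from 32.0 ± 11.0 to 205 ± 142 TPM (SD, n = 5 each), a ratio of means of 6.40. The log2 change was 2.24 ± 0.59 (SE; limma adjusted p = 0.0366).

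Ifngr2, its partner, which binds JAK2, was at 30.5, 41.6, 39.8, 39.5 and 49.4 TPM in control and at 23.4, 25.3, 44.3, 47.5 and 33.0 TPM in libraries 6 to 10. Libraries 6 and 7, where Ifngr1 was highest, were the lowest of all 10 for Ifngr2, and the groups overlapped. The means were 40.1 ± 6.75 and 34.7 ± 10.9 TPM, with a log2 change of -0.24 and a 95% interval of -0.78 to 0.29 (limma adjusted p = 0.509). The sign turned without libraries 6 and 7 (0.050).

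Il10ra makes the ligand-binding chain of the IL-10 receptor. It was at 7.25, 3.79, 5.13 and 3.27 TPM in control libraries 1 to 4, was listed at 0 in control library 5, and was at 32.4, 51.0, 38.2, 22.0 and 6.15 TPM in libraries 6 to 10. Libraries 6 to 9 were above the control range, and library 10 lay under control library 1. The mean was 3.89 ± 2.66 in control and 30.0 ± 17.0 TPM in cytokine mRNA tumours, a ratio of means of 7.71. The log2 change of 2.68 ± 0.64 (SE; limma adjusted p = 0.0256) was the highest of the 7 members, above 97.4% of all tested genes.

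Il10rb, the shared chain that binds TYK2, was at 33.7, 82.7, 98.3, 69.6 and 84.7 TPM in control and at 43.7, 62.0, 56.1, 74.3 and 67.4 TPM in libraries 6 to 10. All 5 cytokine mRNA libraries lay inside the control range, whose lowest value was library 1. The means were 73.8 ± 24.6 and 60.7 ± 11.6 TPM, with a log2 change of -0.21 and a 95% interval of -0.85 to 0.42 (limma adjusted p = 0.628).

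Il10, the gene of the cytokine itself, was the least abundant member. It was at 1.09, 0.989 and 1.55 TPM in control libraries 1, 2 and 4, was listed at 0 in libraries 3 and 5, and was at 1.29, 7.39, 2.25, 1.08 and 2.16 TPM in libraries 6 to 10. Library 7 was the highest, and 3 cytokine mRNA libraries lay above the control range. The log2 change was 1.05 ± 0.44 (SE), which did not pass the threshold (limma unadjusted p = 0.0362, adjusted p = 0.136). The mean of the cytokine mRNA group was 2.83 ± 2.60 TPM, and 1.69 TPM without library 7.

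**Figure D2:**
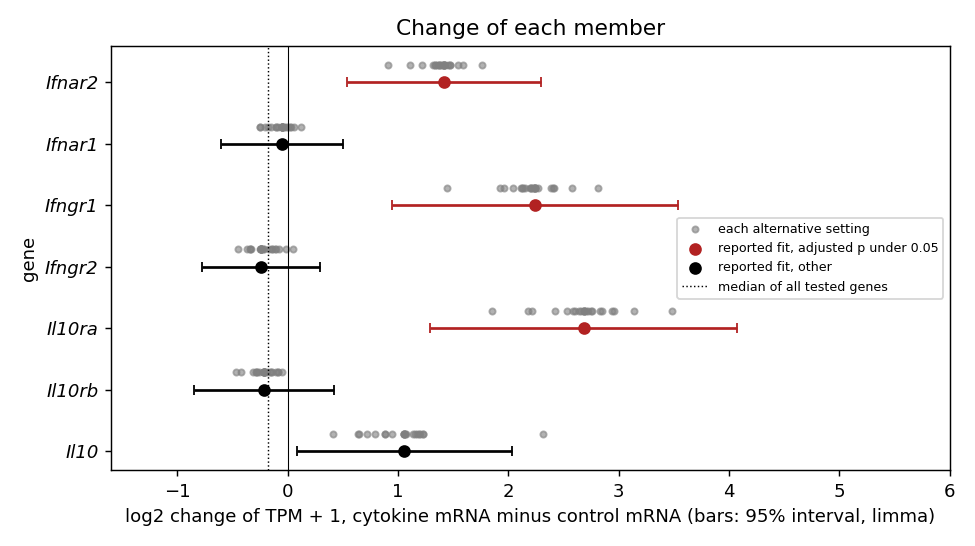
Log2 change of TPM + 1 for each member (large points, red where called, with 95% intervals not adjusted for the number of genes) and the same under each alternative setting (small grey points above). Ifnar2, Ifngr1 and Il10ra stayed above 0 in every setting plotted, with log2 changes of at least 0.91, 1.45 and 1.85.

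The 3 calls were lost in many fits with 1 library left out, while the log2 changes stayed above 0. Calls were lost over the whole table as well. Of all 12497 tested genes, 926 were called higher with all libraries. With 1 library left out, 321 to 778 were, apart from 1644 without library 10. In these fits the changes were 1.11 to 1.77 for Ifnar2, 1.92 to 2.81 for Ifngr1 and 2.18 to 3.14 for Il10ra. Without library 10 all 3 were called, with limma adjusted p-values of 0.00252 for Ifnar2, 9.5e-04 for Ifngr1 and 0.00306 for Il10ra. With each library left out in turn, the call of Ifnar2 was lost in 9 of 10 fits (all but that without library 10, adjusted p up to 0.110), that of Ifngr1 in 8 (all but those without control library 1 or library 10, up to 0.0963), and that of Il10ra in 6 (those without control libraries 2 or 4 or cytokine libraries 6, 7, 8 or 9, up to 0.0693). Without libraries 6 and 7 the log2 changes were 0.91 in Ifnar2, 1.45 in Ifngr1 and 2.22 in Il10ra, with adjusted p-values of 0.172, 0.177 and 0.143. The cytokine mRNA means were then 170, 113 and 22.1 TPM, and 19 of all 12497 tested genes were called higher. An exact rank-sum test called 0 members and 0 of all genes, with 2914 genes at an unadjusted p under 0.05. Its smallest possible unadjusted p with 5 against 5 tumours is 0.00794. Genes without overlap between the groups, such as Stat2, had a rank-sum adjusted p of 0.0860, so this test could call no gene.

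The order of the levels changed mainly through Ifngr1. In control tumours the order was Ifnar2, Il10rb, Ifngr2, Ifnar1, Ifngr1, Il10ra and Il10. Ifnar2 was above Il10rb in 3 of 5 libraries and Ifngr2 above Ifnar1 in 3 of 5, so these neighbours did not differ beyond their spread, while Il10rb was above Ifngr2 in 5 of 5. In cytokine mRNA tumours Ifngr1 stood second, above Il10rb in 4 of 5 libraries, and Ifnar2 was above it in 3 of 5. Ifnar1, Ifngr2 and Il10ra then lay close together, with means of 36.5, 34.7 and 30.0 TPM. Il10 was last in both groups.

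The ratio of 2 chains within a library compares the chains of a receptor directly and, where both are well above the pseudocount of 1, depends little on the total to which TPM are scaled. The ratio of Ifnar1 to Ifnar2, as TPM + 1, was 0.378 to 0.558 in control and 0.0951 to 0.332 in cytokine mRNA tumours. These ranges did not overlap, although those of either gene alone did. The mean log2 ratio moved from -1.18 ± 0.21 to -2.65 ± 0.69 (SD, n = 5 each), a difference of -1.47 with a 95% interval of -2.18 to -0.72. The exact 2-sided permutation p was 0.00794, the smallest that 5 against 5 tumours can give, and 0.0212 adjusted over the 4 ratios tested.

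The ratio of Ifngr1 to Ifngr2 was 0.587 to 1.66 in control and 0.907 to 13.7 in cytokine mRNA tumours. Libraries 6 and 7 were highest, at 13.3 and 13.7, and library 10 was the only cytokine mRNA library inside the control range. The mean log2 ratio moved from -0.35 ± 0.62 to 2.13 ± 1.71, a difference of 2.48 with a 95% interval of 0.43 to 4.42 (exact permutation p = 0.0159, adjusted p = 0.0212). Control library 1, at a log2 ratio of 0.73, lay apart from the other control libraries, which were between -0.77 and -0.47.

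The ratio of Il10ra to Il10rb was 0.0117 to 0.238 in control and 0.104 to 0.826 in cytokine mRNA tumours. The lowest value belonged to control library 5, where Il10ra was listed at 0 and the ratio was set by the pseudocount, and library 10 again lay inside the control range. The mean log2 ratio moved from -4.14 ± 1.54 to -1.24 ± 1.26, a difference of 2.90 with a 95% interval of 0.76 to 4.87 (exact permutation p = 0.0159, adjusted p = 0.0212). Without libraries 6 and 7 the differences of the chain ratios were -1.08, 1.40 and 2.30, and none passed adjustment (exact permutation, adjusted p of 0.0714, 0.0714 and 0.119). The Ifnar1 to Ifnar2 ratio of libraries 8 to 10 still lay below every control library (exact permutation unadjusted p = 0.0179). No smaller p is possible with 5 against 3 tumours, so this ratio could not have come out stronger in that test. With 1 library left out, adjusted p-values reached 0.0529 for the interferon receptor ratios and 0.0635 for the IL-10 receptor ratio, and all differences kept their sign.

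**Figure D3:**
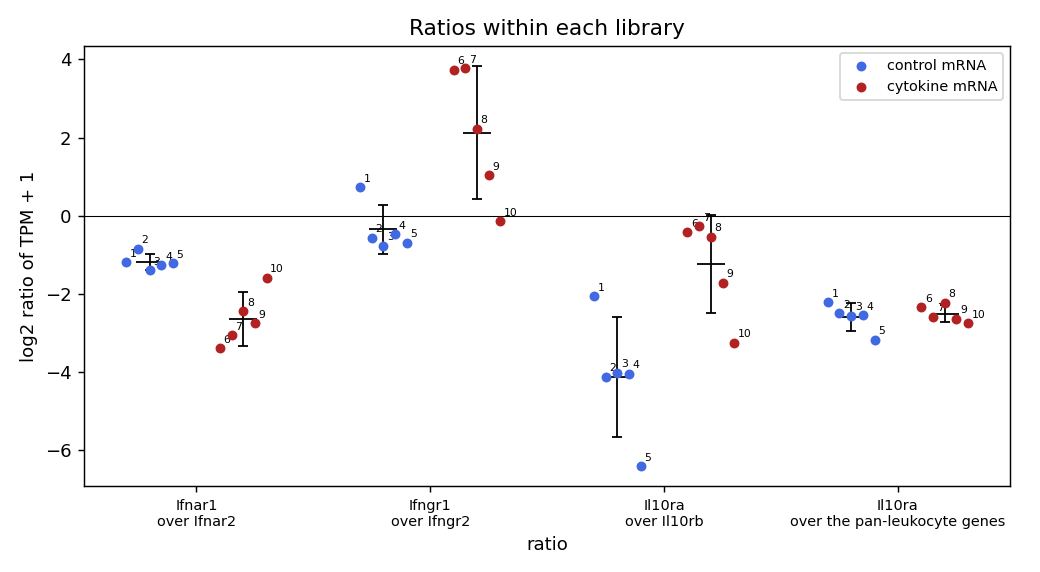
Log2 ratio of TPM + 1 within each library for the 3 receptor pairs and for Il10ra over the mean of 12 pan-leukocyte genes (points numbered by library, blue control mRNA, red cytokine mRNA; black bars show mean and SD). The Ifnar1 over Ifnar2 groups do not overlap, while the Il10ra over leukocyte groups overlap, at means of -2.60 and -2.51.

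Leukocyte genes moved with the 3 called chains. Of 12 pan-leukocyte genes, 10 were called higher and 0 lower, and they summed to 728 to 1008 TPM in control and 1447 to 7136 TPM in cytokine mRNA tumours. Of 12 macrophage and monocyte genes 9 were higher, with sums of 121 to 479 and 698 to 14120 TPM, and of 8 tested T cell genes 7 were higher, with sums of 3.83 to 47.5 and 64.3 to 3703 TPM. No gene of these 3 lists was at 0 in all control libraries. Library 10 had the lowest sum of its group for each of these 3 lists. The pan-leukocyte count was 5 without library 6 and 6 without library 8. The macrophage and monocyte count was 5 without control libraries 4 or 5 or library 8, and 4 without library 6. The T cell count was 4 without control libraries 2 or 5 or libraries 6 or 8. Over the table, 321 to 1644 genes were called higher with 1 library left out. Without libraries 6 and 7 together the 3 counts were 1, 0 and 0, in a fit that called 19 of all 12497 tested genes higher.

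The level of Il10ra relative to the leukocyte genes did not pass the test for a difference. On the log2(TPM + 1) scale it differed from the pan-leukocyte mean by -2.21, -2.50, -2.56, -2.56 and -3.17 in control libraries 1 to 5 and by -2.34, -2.59, -2.23, -2.64 and -2.75 in libraries 6 to 10. The difference between the groups was 0.09, with a 95% interval of -0.31 to 0.55 (exact permutation p = 0.698, adjusted p = 0.698). It depended on the pseudocount: it was 0.70 with a pseudocount of 0.1 and -0.44 with 5, where it passed the threshold (exact permutation, adjusted p = 0.0159). Library 10, which had control-like Il10ra, had a pan-leukocyte mean close to the control range.

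For the other chains the same subtraction is given as a description, without a test. Ifngr1 lay 0.39 ± 0.87 above the pan-leukocyte mean in control and 0.04 ± 0.64 above it in cytokine mRNA tumours (SD, n = 5 each). Ifnar2 lay 1.78 ± 0.72 and 0.61 ± 0.30 above it. Ifnar1 went from 0.60 ± 0.69 above to -2.04 ± 0.74, Ifngr2 from 0.74 ± 1.05 to -2.09 ± 1.17, and Il10rb from 1.54 ± 1.20 to -1.27 ± 1.11. These are group means: Il10rb in library 10 lay 0.51 above the pan-leukocyte mean, and Ifngr2 and Il10rb in control library 1 lay at -0.28 and -0.14. The part of leukocyte content in the changes of Ifnar2 and Ifngr1 was not tested.

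**Figure D4:**
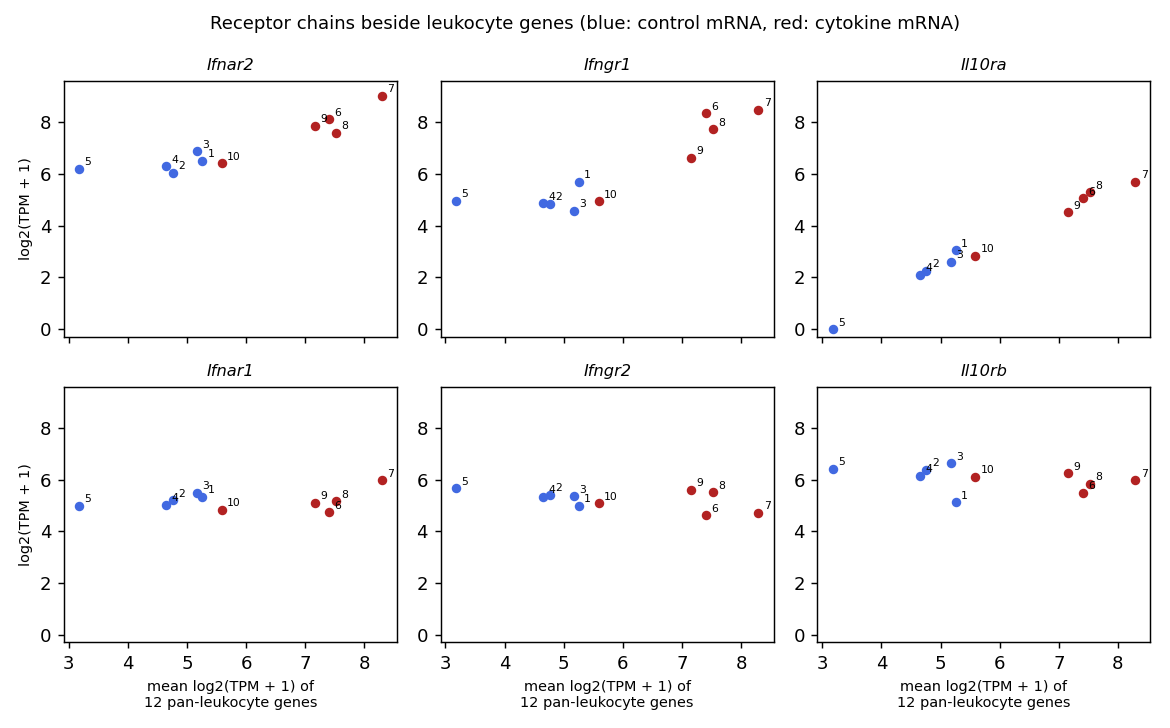
Log2(TPM + 1) of each receptor chain (vertical axis) against the mean log2(TPM + 1) of 12 pan-leukocyte genes (horizontal axis) in the 10 libraries, numbered, blue control mRNA and red cytokine mRNA. In the upper row Ifnar2, Ifngr1 and Il10ra are high in libraries 6 to 9, while the partner chains in the lower row show no such rise. Il10ra differs from the leukocyte mean by -3.17 to -2.21 over the 10 libraries. The value of control library 5 is set by a listed 0, and the group difference depends on the pseudocount.

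Other cell types gave the following values. Of 3 tested neutrophil genes 2 were higher, with sums over 7 genes of 1.17 to 31.5 TPM in control and 16.4 to 196 TPM in cytokine mRNA tumours. S100a9, Retnlg and Ly6g, all neutrophil genes, were listed at 0 in every control library. The neutrophil count was 0 or 1 in every fit with 1 library left out but that without library 10. All 3 tested NK cell genes, of 6 listed, were higher. Klra8, an NK cell gene tested, was listed at 0 in every control library and passed the filter only through the cytokine mRNA libraries. Its direction was thus set by the filter. Of 6 tested dendritic cell genes 3 were higher. For B cell, endothelial and fibroblast genes, 0 of 2, 0 of 6 and 0 of 7 were called by limma in either direction. The dendritic cell count was 1 without control libraries 1, 2 or 5 or libraries 6, 7 or 8, and 5 without library 10. The NK, neutrophil and dendritic cell counts were 0 without libraries 6 and 7 together, where 19 of all 12497 tested genes were called higher. None of 8 melanocyte lineage genes, the markers of the tumour cells, was called, with sums of 2604 to 16413 TPM in control and 41.9 to 16831 TPM in cytokine mRNA tumours. The median log2 change of the melanocyte list was -1.86. Of 12 reference genes, which no scaling used, 1 was higher, B2m, a subunit of MHC class I. The median log2 change of these reference genes was -0.48.

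Ifnar2, Il10rb, Ifnar1 and Ifngr2 are neighbours on chromosome 16, in that order, in the RefSeq annotation of mouse build GRCm38.p6. Ifngr1 lies on chromosome 10, Il10ra on chromosome 9 and Il10 on chromosome 1. Of the 4 neighbours only Ifnar2, at the edge of the cluster, was called higher, and the next gene, Il10rb, had a log2 change of -0.21. Of the 5 genes on each side of the cluster 6 had a row, and 4 could be tested. None of these 4 was called by limma. Tmem50b, which encodes a membrane protein next to Ifngr2, was at 14.1 ± 6.27 and 34.2 ± 17.3 TPM (log2 change 1.14, limma adjusted p = 0.0819). Dnajc28 and Gart, a purine synthesis enzyme gene, had log2 changes of -0.68 and -0.64 (limma adjusted p = 0.145 and 0.124), and the splicing cofactor gene Son 0.30 (0.255). Olig1 and Olig2, on the other side, were listed at 0 in all control libraries. The gene model Gm21970 overlaps both Ifnar2 and Il10rb on the same strand in GENCODE release 21, and it was at 0.00176 TPM or less in every library.

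**Figure D5:**
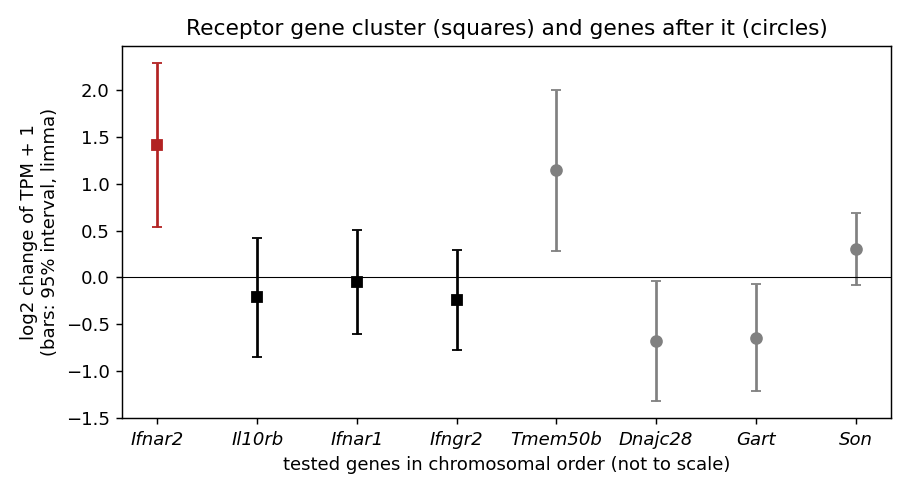
Log2 change of TPM + 1 with unadjusted 95% intervals for the tested genes of the receptor cluster (squares) and after it (circles), in chromosomal order and not to scale. Ifnar2, in red, is the only called gene, at 1.42, and its neighbours Il10rb, Ifnar1 and Ifngr2 lie at -0.21, -0.05 and -0.24.

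RefSeq promoter windows (build GRCm38.p6) were found for 4 of the 7 members. Those of Ifnar2 and Ifngr1, which were called higher, and of Ifngr2, the partner that was not, are shown for comparison, each the 250 bases before the annotated start, on the plus strand, at chr16:91372533-91372782, chr10:19591699-19591948 and chr16:91546809-91547058. Capitals mark matches on either strand to TTCNNNGAA, the gamma-activated site of interferon gamma signalling, GAAANNGAAA, the core of the interferon-stimulated response element, GGGCGG, the GC box, or TATAAA, the TATA box.
Ifnar2: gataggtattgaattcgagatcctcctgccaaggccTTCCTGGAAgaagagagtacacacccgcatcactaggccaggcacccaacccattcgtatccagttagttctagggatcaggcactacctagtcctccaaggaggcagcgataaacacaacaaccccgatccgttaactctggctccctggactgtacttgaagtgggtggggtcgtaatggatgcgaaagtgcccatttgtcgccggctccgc
Ifngr1: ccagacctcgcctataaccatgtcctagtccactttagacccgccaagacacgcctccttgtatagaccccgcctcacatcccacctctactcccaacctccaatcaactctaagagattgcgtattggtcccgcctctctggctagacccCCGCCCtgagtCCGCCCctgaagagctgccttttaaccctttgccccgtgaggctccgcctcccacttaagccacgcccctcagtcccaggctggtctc
Ifngr2: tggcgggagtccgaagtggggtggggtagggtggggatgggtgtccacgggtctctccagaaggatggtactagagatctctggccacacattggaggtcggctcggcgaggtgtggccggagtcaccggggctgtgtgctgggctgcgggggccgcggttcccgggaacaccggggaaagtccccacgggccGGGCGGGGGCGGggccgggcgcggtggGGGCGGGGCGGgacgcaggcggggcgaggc

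The Ifnar2 window held 1 match to TTCNNNGAA, at bases 37 to 45 (TTCCTGGAA), and no GC box. TTCNNNGAA was found in 7.02% of the 32851 promoter windows of the same length. The Ifngr1 window held 2 GC boxes, and the Ifngr2 window held 4 matches. In Ifngr2, those at bases 194 to 199 and 200 to 205 lie side by side. Those at bases 221 to 226 and 226 to 231 overlap. GC boxes were found in 32.7% of all windows. None of these 3 windows held GAAANNGAAA (2.98% of all windows) or TATAAA (12.4%). The GC content was 54% in Ifnar2, 59.2% in Ifngr1 and 74% in Ifngr2, against a median of 52.4% over all windows. A match is a description of the letters and not of binding. The window of Ifnar1, the fourth, held 2 GC boxes and none of the other motifs.

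Genes of the ligands were mostly listed at 0. Ifng, the interferon gamma gene and the ligand of the Ifngr1 and Ifngr2 chains, was the only interferon gene of 21 with enough signal to be tested, and its log2 change was 4.06 ± 0.66 (SE; limma adjusted p = 0.0107). Its 5 cytokine mRNA values lay above all control values, with 8.81 TPM in library 10 against a control maximum of 2.79 TPM. Of the other 20 interferon genes 16 were listed at 0 in all 10 libraries. Ifna2 was listed above 0 in 1 library only, at 3.08 TPM in library 7. The injected mixture encoded an IFNalpha, and whether reads of that mRNA could fall into these rows was not tested. Of the 5 other IL-10 family ligand genes, Il19, Il22, Iltifb and Il24 were listed at 0 throughout and Il20 reached 1.13 TPM in library 7.

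The other receptors of the family were low or not called. Of the 6 remaining class II cytokine receptor genes, 2 could be tested and neither was called by limma. F3, tissue factor, the family member that starts blood clotting, was at 96.8 ± 22.5 and 73.2 ± 49.8 TPM (limma adjusted p = 0.325), and its change of -0.71 turned to 0.0069 without libraries 6 and 7. Il20rb, a chain of IL-20 receptors, was at 1.38 ± 0.65 and 1.76 ± 0.77 TPM. Ifnlr1, which pairs with the Il10rb product to bind type III interferons, was at 0.749 ± 0.640 and 0.711 ± 0.498 TPM, below the filter on low values.

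Downstream of the receptors, Stat2 was higher and the kinase genes Jak1, Jak2 and Tyk2 were not called. Stat2, a type I interferon transducer, rose from 38.5 ± 16.8 to 206 ± 71.3 TPM (log2 change 2.45, limma adjusted p = 0.00961). Stat3, the main transducer of IL-10, was at 233 ± 25.6 and 357 ± 83.6 TPM, with no overlap between the groups but a limma adjusted p = 0.0793. Jak1, the kinase of the 3 called chains, was at 62.0 ± 9.33 and 146 ± 72.4 TPM (log2 change 1.06, limma adjusted p = 0.0711). Jak2 and Tyk2, the kinases of the partner chains, had log2 changes of 0.68 and 0.56 (limma adjusted p = 0.106 and 0.196). These values of genes outside the rule for named genes were chosen after they were seen.

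Of 11 genes that restrain these receptors or are linked to that feedback, 3 were called higher and 0 lower, with a median log2 change of 1.01. Over all tested genes, 7.41% were called higher and 3.02% lower, with a median of -0.18. The higher count of this list was 2 to 7 with 1 library left out and 8 with library quality weights. It was 0 without libraries 6 and 7, where 19 of all 12497 tested genes were called higher. Usp18, which binds IFNAR2 and blocks its signalling, rose from 11.8 ± 5.17 to 72.0 ± 40.9 TPM (log2 change 2.43, limma adjusted p = 0.0107). Isg15, a ubiquitin-like protein that stabilises USP18 in human cells, rose from 37.6 ± 17.1 to 258 ± 132 TPM. Socs1, an inhibitor of JAK kinases, rose from 5.02 ± 3.25 to 25.2 ± 14.7 TPM (limma adjusted p = 0.0353), a call lost in 7 of 10 fits with 1 library left out. Socs3, an inhibitor induced through STAT3, was at 12.6 ± 6.14 and 25.5 ± 7.88 TPM (limma adjusted p = 0.0792) and was named after its values were seen.

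Genes that IL-10 is known to induce in macrophages gave a mixed picture. Of 11 tested, 4 were called higher and 1 lower, where 7.41% and 3.02% of all tested genes were. The median log2 change of the 11 was 1.32. The higher count was 2 without control libraries 2, 4 or 5 or libraries 6 or 9, 1 without library 8 and 7 without library 10. Without libraries 6 and 7 together it was 0, where 19 of all 12497 tested genes were called higher. Il1rn, the interleukin-1 receptor antagonist, rose by 3.52 ± 0.50 on the log2 scale (SE; limma adjusted p = 0.00933). Il21r, the IL-21 receptor chain, rose from 5.07 ± 3.22 to 65.4 ± 61.5 TPM (39.0 TPM without library 7). Il4ra, the IL-4 receptor chain, rose from 10.1 ± 5.95 to 55.6 ± 36.1 TPM, a call lost in 9 of 10 fits with 1 library left out. Zfp36 was the other called higher, with a log2 change of 1.32 and a call lost in 5 of 10 fits with 1 library left out, and Ddit4, a stress-induced inhibitor of mTOR signalling, fell from 82.8 ± 21.4 to 35.8 ± 23.6 TPM, a call lost in 9 of 10 fits with 1 library left out (all but that without library 10). Both were named after their values were seen. Il1rn and Il4ra also respond to other cytokines.

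Most genes that interferons are known to induce were called higher. Of 21 type I interferon-stimulated genes 20 were higher, with a median log2 change of 2.26, and of 18 tested interferon gamma response genes 16 were higher, with a median of 2.66. The second count fell to 8 without control libraries 2 or 4, and to 6, 5 and 9 without cytokine libraries 6, 8 and 9. Without libraries 6 and 7 together, 1 gene of each list was called, where 19 of all 12497 tested genes were called higher. Neither list held a lower gene by limma. Ifi44 and Oasl2 rose by 3.34 and 3.19 on the log2 scale (limma adjusted p = 0.00961 and 0.00994), and Gbp4 and Cxcl9 by 4.06 and 3.78 (0.0251 and 0.0354), with these last calls lost in 5 and 6 of 10 fits with 1 library left out. Oas3, which makes the activator of RNase L, was at 8.64 TPM in library 10 against a control mean of 2.14 ± 1.43 TPM, and Gbp5, a guanylate-binding protein, was at 46.0 TPM in library 10 against 7.83 ± 6.21 TPM. Library 10 thus exceeded the control libraries in Oas3 and Gbp5, while its Ifnar2, Ifngr1 and Il10ra levels did not. These lists were written with earlier results of these data known and are no independent support.

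The tested genes most like each member were found by the root mean square difference of gene-centred log2(TPM + 1) over the 10 libraries. For Il10ra they were C1qb, Adap2 and Adgre1, at 0.15, 0.16 and 0.20, against a spread of Il10ra itself of 1.69. For Ifnar2 they were Akna, Cers6 and Fbxo6, at 0.21, 0.25 and 0.25 (own spread 0.95), and for Ifngr1 Slc31a2, Gimap8 and Dgka, at 0.27, 0.29 and 0.32 (own spread 1.48). For Il10 they were Mppe1, Gltscr1 and Tsr3, at 0.30, 0.33 and 0.35 (own spread 0.83). For the members with little change they were Fam122b, Sdf2 and Zfp57 for Ifnar1 (0.14 to 0.16, own spread 0.34), Ficd, Hexa and Sgf29 for Ifngr2 (0.16 to 0.18, own spread 0.34) and Tmem87b, Rchy1 and Hps3 for Il10rb (0.17 to 0.23, own spread 0.43). No gene was among the nearest 3 of more than 1 member.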

How the data were processed

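RNA was sequenced from 10 tumours, 5 per group, each from its own mouse per the design text. Per the labels' protocols, polyA RNA and stranded NuGEN libraries were used. The authors deposited 1 table of TPM, 1 column per library, each summing to 1000000. STAR was the aligner and GRCh38, a human build, the genome, per the submitters' processing notes, so the build of these mouse data is open. For the annotation, counting program and use of strand, the sources used here give nothing. Since TPM keep no depth, no counting interval was possible.

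Genes reaching a TPM of 1 in 5 or more libraries were compared on log2(TPM + 1) by limma 3.58.1 in R 4.3.3 (eBayes with trend, 2-sided), with Benjamini-Hochberg adjustment over all 12497 genes. All 7 members passed. The fit was tested on simulated data. Fold changes on this scale understate those of low genes. Ratios were compared by exact 2-sided permutation tests, with intervals from the shifts these tests did not refuse. Promoters and neighbours are from RefSeq, GRCm38.p6.

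Named were the members, the called genes of each pathway list that moved most, up to 3 (where none was called, its 2 most abundant), flanking genes and the nearest profiles. For cell type lists, sums are given in place of the 2 most abundant genes, with Tyrp1 and Dct named as well. Some genes of the lists are not reported here. Members and lists were chosen with earlier results of these data known. Alternatives were other pseudocounts, filters, scalings, variance priors, weights, a rank test and libraries left out.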

Additional observations from a re-analysis of the deposited data

Results flagged for a closer look

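Of 22 groups of 5 values checked (7 members and 4 ratios in each group), 1 held a library far from the others. It was the ratio of Ifngr1 to Ifngr2 in control tumours, where library 1, at a log2 ratio of 0.73, lay 0.799 of the group's whole range away from its nearest neighbour, the others being between -0.77 and -0.47. Chance gives such a library in about 1 of 20 groups.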

How the results depend on the processing

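The members called higher numbered 3, and 1 with a pseudocount of 0.1 (Ifngr1), 1 with no filter on low values (Il10ra), 0 by an exact rank-sum test and 0 without libraries 6 and 7. With 1 library left out they ranged from 0 to 3. Members called lower were 0 in every setting run. Over the table, genes called higher numbered 1593 with library quality weights, 1441 without libraries 7 and 10, 19 without libraries 6 and 7, and 321 to 1644 with 1 library left out. Genes called lower numbered 170 with no filter, 613 after quantile normalization, 901 without mitochondrial genes, 569 without the 50 most abundant genes, 1176 with library quality weights, 1166 without libraries 7 and 10, 1 without libraries 6 and 7, and 46 to 1594 with 1 library left out. The exact rank-sum test called 0 in either direction, since its smallest possible p did not pass after adjustment.

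With 1 library left out, the difference in log2 ratio ranged from -1.73 to -1.28 for Ifnar1 over Ifnar2, from 2.07 to 3.05 for Ifngr1 over Ifngr2, from 2.32 to 3.41 for Il10ra over Il10rb and from -0.053 to 0.19 for Il10ra over the pan-leukocyte genes. Without libraries 6 and 7 the chain differences were -1.08, 1.40 and 2.30, none past the threshold, with 5 against 3 tumours. The leukocyte ratio changed sign with a pseudocount of 5 (-0.44) and with the list median (-0.0471). Among single genes the sign turned in Ifnar1 with median-ratio scaling (0.12) and in single-library fits (-0.25 to 0.057), and without libraries 6 and 7 in Ifngr2 (0.050) and F3 (0.0069). The cause of these changes was not tested. No test for members below the filter was needed, since all 7 passed, and Il10 was not tested with a filter at a TPM of 5. No paired analysis was possible because the labels give the groups no shared numbers.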
